A study of Mus musculus with 19 samples.

Results

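The response of small intestinal crypts to a 48-hour fast was measured in mice that lack neurotensin. Neurotensin is a peptide hormone that enteroendocrine cells of the small intestine release after a fatty meal, and it is encoded by Nts. The comparison rests on 9 of the 19 mice of the study, with 1 library per mouse, chosen by their titles: 4 Nt-/- mice fed ad libitum and 5 Nt-/- mice fasted for 48 hours with water only. Per the labels all were C57BL/6 mice of the NT -/- genotype. Of the fed mice 3 were female and 1 was male, and of the fasted mice 3 were female, 1 was male and 1 had no sex label. The study used sex- and age-matched littermates on chow as controls, and the labels give no age per mouse. The deletion is carried by the whole animal and not by crypt cells alone. Crypts were shaken off the proximal part of the small intestine with EDTA. The study describes its mice as carriers of an Lgr5-EGFP reporter with CreERT2, its methods list Nt mice with and without it, and the labels do not say which were sequenced. The other 10 mice, 5 fed and 5 fasted, were Nt+/+ and enter here to estimate the spread and to test the difference between the genotypes. Among them, 1 fasted mouse has a title of Nt+/+ but a genotype label of NT -/-, and it was kept in the group of its title.

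Crypts are the epithelial pits in which intestinal stem cells and rapidly dividing progenitors supply the absorptive and secretory cells of the villus. During a fast, fatty acids released from fat tissue become the main fuel of many tissues. The nuclear receptors of the PPAR family sense fatty acids and turn on the genes that burn them, insulin falls, glucocorticoids rise, and many cells slow their growth and division. The intestinal lining is also renewed more slowly and its absorptive surface shrinks.

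Levels are given as CPM, the rounded expected counts of a gene per 1000000 counts of the library's TMM-adjusted size. Changes are log2 fold changes of fasted over fed Nt-/- mice, with standard errors (SE) and Benjamini-Hochberg adjusted p values of edgeR's quasi-likelihood test over 17875 genes. A gene was called when its adjusted p was under 0.05. Values in single mice are listed in the order of the replicate numbers of the titles, fed mice 1 to 4 and fasted mice 1 to 5, and means are given ± SD.

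Nts itself was almost absent from all 9 mice. The 4 fed mice had 0.147, 0.216, 0.144 and 0.746 CPM and the 5 fasted mice had 0.214, 0.3404, 0.5204, 0.296 and 0.793 CPM, against means of 7.82 and 5.42 CPM in fed and fasted Nt+/+ mice. Fed mouse 4 and fasted mouse 5 had the highest of these low values, and the fed and fasted mice overlapped (log2 fold change 0.61, SE 0.43, adjusted p = 0.33). Without fed mouse 4 the low values differed (log2 fold change 1.42, adjusted p = 0.0093). With the mouse whose labels disagree counted as fasted Nt-/-, the log2 fold change of Nts was 2.17 (adjusted p = 0.048). Nts lies at chr10:102481756-102490486 of the mouse genome build GRCm38, and which part of the gene the remaining reads came from was not tested.

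Total counts ran from 17676459 to 35068711 in the fed mice and from 9059457 to 19889820 in the fasted mice, and fasted mice 2 and 4 were the shallowest libraries at 9059457 and 10067632 counts. Over all tested genes the levels of any 2 fed mice correlated at a Spearman rho of 0.983 to 0.989, those of any 2 fasted mice at 0.973 to 0.986, and those of a fed and a fasted mouse at 0.958 to 0.979. The first principal component of the 9 libraries held 36.4% of the variance and separated the fed mice, at -51.6 to -30.4, from the fasted mice, at 16.2 to 48.9. The second held 16.7% and set fasted mouse 1 (54.6) and fasted mouse 5 (27.3) apart from the other 3 fasted mice (-27.1 to -17.8). The median SD of a gene's log2 CPM was 0.184 among the fed mice and 0.252 among the fasted mice. Marker genes of mesenchyme, endothelium, nerve and glia, and red blood cells were near 0 in every mouse, with summed levels of at most 15, 9, 3 and 31 CPM. Other lists were not. The summed markers of smooth muscle were 168 to 235 CPM in the fed mice and 155 to 204 CPM in the fasted mice. Those of myeloid cells were 57 to 81 CPM in the fed mice and 61 to 80 CPM in the fasted mice. Those of B and plasma cells were 22 to 106 CPM in the fed mice and 18 to 75 CPM in the fasted mice. Those of pancreatic acinar cells were 114 to 371 CPM in the fed mice and 73 to 265 CPM in the fasted mice. All these sums cover tested genes only, and for acinar cells these were 2 of the 10 listed markers.

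Fasting changed 4499 of the 17875 tested genes (25.2%) in Nt-/- crypts, of which 2242 (12.5% of tested genes) were higher and 2257 (12.6%) were lower in fasted mice. The median change over all tested genes was -0.02 on the log2 scale. Most changes were small: the median called gene differed by 1.46-fold. Large changes were more often increases, since 606 called genes were at least 2-fold higher and 324 at least 2-fold lower, and 137 were at least 4-fold higher against 55 at least 4-fold lower. The fasted and fed mice did not overlap in CPM in 3809 of all tested genes (21.3%) and in 3314 of the 4499 called genes. Protein-coding genes were called in 30.4% of 13535 cases and genes of other types in 8.82% of 4340 cases. The share called also depended on the level: 11.9% of the 6320 genes with an average under 2 log2 CPM, 28.2% of the 5866 genes between 2 and 5, and 36.8% of the 5689 genes at 5 or more were called.

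**Figure D1:**
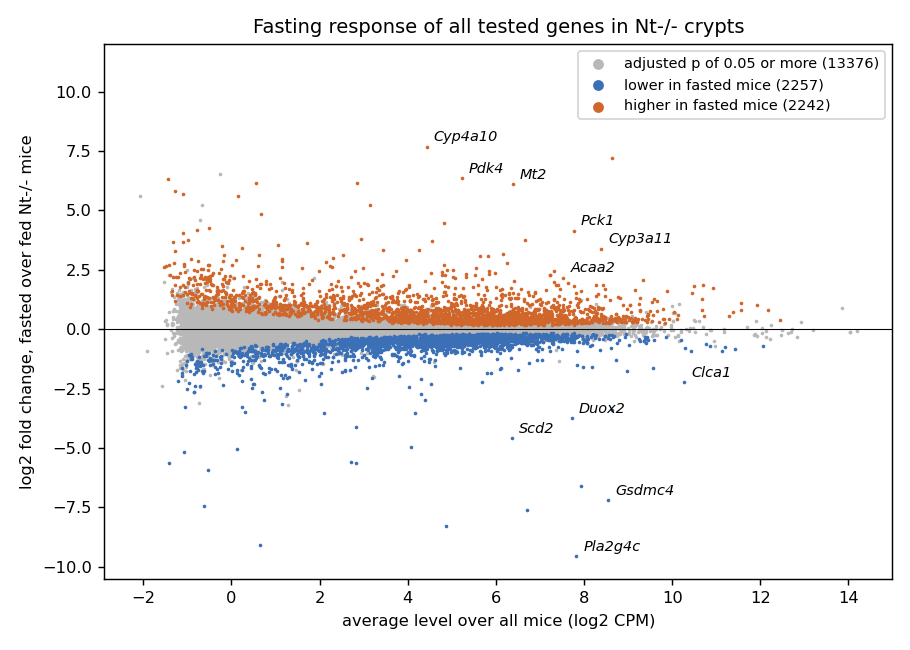
Log2 fold change of fasted over fed Nt-/- mice (vertical axis) against the average level over all mice in log2 CPM (horizontal axis), 1 point per tested gene. The 2242 genes that were higher in fasted mice are orange, the 2257 that were lower are blue, and genes with an adjusted p of 0.05 or more are grey; labelled examples at high levels are the rise of Pck1 and Cyp3a11 and the fall of Pla2g4c and Gsdmc4.

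Genes of cell division fell together, and the promoters of 3 of them are shown here because they carry a pair of short motifs known from cell cycle promoters. The letters CCAAT are the core of the binding site of the factor NF-Y. The letters TTTGAA are the core of the cell cycle genes homology region, through which repressor complexes act on mitotic genes outside mitosis. Both were searched on both strands in the 250 bases upstream of the RefSeq start of each gene, and neither contains the other. CCAAT was present upstream of 26 of the 35 genes of a mitosis list that had a promoter sequence (74.3%), of 22 of 38 DNA replication genes (57.9%), and of 4117 of all 11360 tested genes with a promoter (36.2%). TTTGAA was present in 12 of the 35 mitosis genes (34.3%), 4 of the 38 replication genes (10.5%) and 1285 of all 11360 (11.3%). Among all 1708 genes with a promoter that were lower in fasted mice, CCAAT was present in 40.5% and TTTGAA in 12.1%. Among the 1679 that were higher, the shares were 35.9% and 10.2%. The shares of the lower genes as a whole thus lay near those of all promoters. The E2F site TTTCCCGC was found upstream of 4 of the 38 replication genes (10.5%) and none of the 35 mitosis genes, against 1.67% of all promoters, and the form TTTGGCGC upstream of 3 (7.89%) and none, against 0.792%. Of the 35 mitosis genes, 9 that were lower in fasted mice held both CCAAT and TTTGAA, with 1 chromosome left out of this count. The 3 of these with the smallest p, Top2a, Espl1 and Mki67, are printed with the motifs in capitals (a motif on the other strand reads ATTGG or TTCAAA). The sequences are from RefSeq, build GRCm38.p6, 5′ to 3′ along the gene: Top2a at chr11:99024190-99024439 on the minus strand, Espl1 at chr15:102296043-102296292 on the plus strand, and Mki67 at chr7:135716380-135716629 on the minus strand.
Top2a: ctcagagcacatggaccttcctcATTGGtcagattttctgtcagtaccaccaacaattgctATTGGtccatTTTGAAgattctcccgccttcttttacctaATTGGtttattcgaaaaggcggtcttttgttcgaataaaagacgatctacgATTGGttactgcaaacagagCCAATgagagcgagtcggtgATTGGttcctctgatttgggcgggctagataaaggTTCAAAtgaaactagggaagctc
Espl1: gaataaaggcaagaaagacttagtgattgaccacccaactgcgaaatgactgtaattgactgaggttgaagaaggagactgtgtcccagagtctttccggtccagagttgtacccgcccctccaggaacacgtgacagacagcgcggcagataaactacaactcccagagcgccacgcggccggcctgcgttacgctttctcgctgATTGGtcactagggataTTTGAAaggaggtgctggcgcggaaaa
Mki67: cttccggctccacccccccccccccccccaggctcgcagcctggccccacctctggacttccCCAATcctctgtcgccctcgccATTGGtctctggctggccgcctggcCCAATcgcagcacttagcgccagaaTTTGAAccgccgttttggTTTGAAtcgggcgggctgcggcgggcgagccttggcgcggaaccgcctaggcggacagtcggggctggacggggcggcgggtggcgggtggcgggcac
The Top2a window holds 6 copies of CCAAT and 2 of TTTGAA, the nearest of which begin 58 and 23 bases before the start. The Espl1 window holds 1 of each, 44 and 27 bases before the start, and the Mki67 window holds 3 and 2, with the nearest at 141 and 98 bases. A match is a description of the letters, and binding of a factor was not measured.

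The 3 genes fell in the fasted mice. Top2a encodes the topoisomerase that untangles chromosomes before they separate. It stood at 467, 463, 493 and 478 CPM in the fed mice and at 278, 278, 214, 300.2 and 314 CPM in the fasted mice. The groups did not overlap, fasted mouse 3 was the lowest, and the level fell 1.72-fold (log2 fold change -0.78, SE 0.11, adjusted p = 6.8e-05). Mki67, which encodes the proliferation marker Ki-67, had 705, 813, 796 and 778 CPM in the fed and 467, 495, 469, 550.5 and 581 CPM in the fasted mice. All fasted mice were below all fed mice (log2 fold change -0.59, SE 0.09, adjusted p = 0.00012). Espl1 encodes separase, the protease that cuts the ring holding sister chromatids together, and fell from 42.8 ± 4.38 to 26.4 ± 3.98 CPM (log2 fold change -0.70, adjusted p = 0.0001).

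Of the 41 tested genes of the mitosis list 34 fell and none rose, with a median log2 fold change of -0.53 beside -0.02 for all tested genes. In Nt+/+ mice 25 of the 41 fell and the median was -0.39. Leaving out 1 mouse at a time gave 25 to 35 lower members. The summed level of the list was 3278 to 3575 CPM in the fed mice and 1823 to 2554 CPM in the fasted mice, with fasted mouse 3 the lowest. The size of the falls was narrow, from -0.84 to -0.25 on the log2 scale. Kif4, a motor protein of the mitotic spindle, fell from 54.3 ± 3.72 to 33.5 ± 3.93 CPM (log2 fold change -0.70, adjusted p = 2e-05). Ccnb1, the cyclin that drives entry into mitosis, went from 54.6 ± 3.69 to 41.98 ± 7.83 CPM and was called (adjusted p = 0.033). That call was lost without fed mouse 1, 2 or 3 or fasted mouse 3 (adjusted p = 0.08, 0.065, 0.084 and 0.067). Cdk1, the kinase that Ccnb1 activates, was 52.6 ± 4.39 CPM in the fed and 44.2 ± 4.42 CPM in the fasted mice and missed the threshold (log2 fold change -0.25, adjusted p = 0.067).

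Genes of DNA replication showed the same direction, with 35 of 47 lower, none higher (1 without fasted mouse 1 or 5) and a median of -0.44 (in Nt+/+ mice, 29 lower and a median of -0.37). Their summed level was 1885 to 2056 CPM in the fed mice and 1288 to 1588 CPM in the fasted mice. Mcm5, a subunit of the helicase that opens DNA, was tightly grouped among the fed mice at 76.3, 73.1, 75.5 and 73.5 CPM. The fasted mice had 53.3, 36.99, 38.7, 38.7 and 45.8 CPM, all lower, and fasted mouse 1 was the highest of them (log2 fold change -0.80, SE 0.13, adjusted p = 0.00019). Rrm2, a subunit of the enzyme that makes deoxynucleotides, fell from 44.6 ± 2.84 to 22.6 ± 2.81 CPM, and Pola1, the catalytic subunit of the polymerase that starts new strands, fell from 56.4 ± 8.62 to 29.8 ± 2.93 CPM. Both changes were close to a log2 value of -1 (log2 fold change -0.98 and -0.92, adjusted p = 1.3e-05 and 7.5e-06).

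Among regulators of division, 8 of 14 cyclins and cyclin-dependent kinases fell and 1 rose, and 6 of 10 E2F factors and partners fell and 1 rose. The number of cyclins and kinases that rose was 0 without fed mouse 3 and 0 without both shallow fasted mice, and that of E2F genes 0 without fed mouse 1, 2, 3 or 4 or fasted mouse 1, 4 or 5. Cyclin D1 (Ccnd1), which couples growth signals to the start of the cell cycle, went from 176, 111, 135 and 156 CPM in the fed to 103, 61.05, 78.01, 55.2 and 80.7 CPM in the fasted mice. The lowest fed mouse, mouse 2, was only just above the highest fasted mouse, mouse 1 (log2 fold change -0.93, SE 0.19, adjusted p = 0.0011). Cyclin E1 (Ccne1), which acts at the start of DNA replication, fell from 8.51 ± 1.53 to 4.82 ± 0.5699 CPM (adjusted p = 0.0038). E2f2, a factor that turns on replication genes, fell from 75.8 ± 2.23 to 40.2 ± 5.17 CPM (log2 fold change -0.91, adjusted p = 6.3e-06). Cdkn1a, which encodes the cyclin-dependent kinase inhibitor p21, was 66.5 ± 9.29 CPM in the fed and 93.2 ± 6.95 CPM in the fasted mice (log2 fold change 0.49, adjusted p = 0.038). The call for Cdkn1a was lost with the replicate block (adjusted p = 0.06) and without fed mouse 2 or 3 or fasted mouse 2, 3 or 5 (adjusted p between 0.064 and 0.13).

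Replication-dependent histone genes, which are transcribed while DNA is copied, gave the least stable count of the growth lists. Of 63 tested genes 14 fell and none rose, with a median of -0.49, and the 22.2% called lay below the 25.2% of all tested genes. With the replicate block the count was 35. It was 2 without fed mouse 1, 3 without fed mouse 3, 23 without fed mouse 4, 24 without fasted mouse 1, 3 without fasted mouse 2, 3 without fasted mouse 3 and 5 without fasted mouse 4, and it was 2 without both shallow fasted mice. These genes are near-identical copies, and RSEM divides shared reads between them by its model.

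Genes that handle fatty acids rose together. Of 36 tested targets of the PPAR receptors 34 rose and none fell, against 25.2% of all genes called in either direction, and their median log2 fold change was 1.43 (in Nt+/+ mice, 33 higher and a median of 1.25). Leaving out any of the 9 mice left the count at 34. Their summed level was 3292 to 4409 CPM in the fed mice and 10000 to 11355 CPM in the fasted mice.

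Cyp4a10, a P450 enzyme that oxidizes the far end of fatty acids, was at the edge of detection in the fed mice with 0.118, 0.0541, 0.144 and 0.533 CPM. In the fasted mice it had 29.8, 27.9, 24.2, 85.7 and 41.95 CPM, and mouse 4 was the highest. No fasted mouse overlapped with a fed one, and the fitted change was 204-fold (log2 fold change 7.67, SE 0.71, adjusted p = 4.2e-07), a size that rests on few reads in the fed mice. Cyp4a10 lies at chr4:115518264-115533649 among close relatives, so reads shared with them make its exact level uncertain.

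Of 8 genes of ketone metabolism 3 rose and 2 fell (median 0.04). Slc16a6, a carrier that exports ketone bodies, rose from 38.9 ± 6.87 to 98.2 ± 22.4 CPM (log2 fold change 1.33, adjusted p = 0.00018). Bdh1, which interconverts acetoacetate and hydroxybutyrate, fell from 132 ± 8.13 to 92.6 ± 11.98 CPM (log2 fold change -0.51, adjusted p = 0.0034). Oxct1, the enzyme that tissues need to burn ketone bodies, fell from 143, 187, 124 and 140.1 CPM to 45.4, 52.3, 33.7, 40.8 and 56.2 CPM. The groups were far apart (log2 fold change -1.70, SE 0.18, adjusted p = 2.1e-06).

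Pdk4 encodes the kinase that switches off pyruvate dehydrogenase and so keeps glucose carbon out of the citric acid cycle. The fed mice had 1.24, 0.704, 1.396 and 0.586 CPM and the fasted mice 66.5, 67.3, 127, 111 and 48.98 CPM. Every fasted mouse was above every fed mouse, mice 3 and 4 most, and the rise was 82.2-fold (log2 fold change 6.36, SE 0.54, adjusted p = 1.2e-07). Acot1, a thioesterase that frees fatty acids from coenzyme A, rose from 2.29 ± 0.574 to 51.2 ± 10.9 CPM, and Angptl4, a secreted inhibitor of lipoprotein lipase, rose from 3.28 ± 2.05 to 43.9 ± 15.1 CPM (adjusted p = 3.3e-09 and 6.7e-06). Retsat, which saturates retinol, rose from 50.4 ± 6.33 to 277 ± 58.9 CPM (log2 fold change 2.46, adjusted p = 3.3e-09).

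Of 24 genes of mitochondrial fatty acid oxidation 18 rose and 2 fell, with a median of 0.61 (in Nt+/+ mice, 19 rose and none fell). The number that fell was 0 without fasted mouse 2 or 3, 1 without fed mouse 1 or 2 or fasted mouse 4 and 0 without both shallow fasted mice. Acaa2, the thiolase of the last step, had the smallest p of all genes that rose. It had 74.6, 57.96, 67.9 and 78.9 CPM in the fed and 342, 258, 304, 323 and 337 CPM in the fasted mice, with little spread in either group (log2 fold change 2.16, SE 0.10, adjusted p = 2.5e-11). Acadl, the long-chain acyl-CoA dehydrogenase, rose from 50.6 ± 10.4 to 246 ± 33.99 CPM (log2 fold change 2.28, adjusted p = 4.2e-09), and Hadha, which carries out the middle steps on long chains, rose from 257 ± 29.6 to 633 ± 66.1 CPM (log2 fold change 1.30, adjusted p = 2.9e-08). Cpt1a, which controls the entry of fatty acids into mitochondria, rose less, from 259.9, 214, 199 and 217 CPM to 465, 369, 329, 424 and 437 CPM. The groups did not overlap (log2 fold change 0.86, SE 0.15, adjusted p = 0.00032).

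Peroxisomes shorten very long fatty acids, and 19 of their 20 tested genes for this rose and none fell (median 0.98), and the number that fell was 1 without fed mouse 3 or fasted mouse 2 and 1 with the replicate block. The thiolase gene Acaa1b rose from 4.003 ± 0.954 to 30.5 ± 5.54 CPM (log2 fold change 2.91, adjusted p = 2.8e-07), with the limit that reads shared with its close copy Acaa1a were divided by RSEM.

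Of 17 genes that build fatty acids 8 fell and 3 rose (median -0.37). Scd2, a desaturase that makes monounsaturated fatty acids, had the smallest p in this direction in the list. It stood at 102, 260.4, 129 and 178 CPM in the fed mice and at 7.26, 7.03, 5.15, 5.23 and 9.67 CPM in the fasted mice. The fed mice were spread and mouse 2 was the highest, while all fasted mice were below 10 CPM (log2 fold change -4.59, SE 0.36, adjusted p = 3.2e-08). Fatty acid synthase (Fasn) fell from 224 ± 14.2 to 125 ± 16.7 CPM (log2 fold change -0.83, adjusted p = 0.00012), and the elongase Elovl6 fell from 167 ± 25.5 to 94.7 ± 10.8 CPM (log2 fold change -0.82, adjusted p = 9e-05). Acacb went the other way. It encodes the acetyl-CoA carboxylase at the mitochondrial surface, whose product restrains Cpt1a, and it rose from 8.15 ± 2.08 to 40.1 ± 4.52 CPM (log2 fold change 2.29, adjusted p = 2.3e-06).

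In cholesterol synthesis 4 of 25 genes fell and 2 rose, a share close to the 25.2% of all tested genes that were called, and the median was -0.06. The count of lower genes was 2 without fed mouse 2 or fasted mouse 3 or 4. Hmgcs1, an early enzyme of the pathway, was 199 ± 45.6 CPM in the fed and 213 ± 28.2 CPM in the fasted mice (log2 fold change 0.09, SE 0.15, adjusted p = 0.71). Sqle, which makes the sterol precursor squalene epoxide, was 77.6 ± 16.3 and 59.004 ± 13.1 CPM (adjusted p = 0.065). Its p passed the threshold with the replicate block (adjusted p = 0.018) and without fed mouse 3 or fasted mouse 5 (adjusted p = 0.029 and 0.0099).

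Of 11 genes of gluconeogenesis 6 rose and none fell (median 0.94). Pck1, the cytosolic enzyme that starts the pathway from oxaloacetate, had 32.5, 32.8, 20.2 and 19.3 CPM in the fed and 405, 210.5, 920.2, 368 and 416 CPM in the fasted mice. The fasted mice were widely spread, mouse 3 highest and mouse 2 lowest, and none overlapped with a fed mouse (log2 fold change 4.14, SE 0.76, adjusted p = 0.00054). Fbp1, the bisphosphatase that reverses a control step of glycolysis, had 19.6, 14.2, 17.7 and 20.9 CPM and then 83.8, 72.8, 89.6, 104 and 86.8 CPM, with the groups far apart (log2 fold change 2.27, SE 0.15, adjusted p = 6.8e-09). G6pc, which releases free glucose, rose from 16.05 ± 5.07 to 81.9 ± 30.5 CPM (log2 fold change 2.34, adjusted p = 0.00034).

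Glycolysis was mixed: 6 of 25 genes rose and 5 fell (median 0.10), and 3 fell without fed mouse 1 or without fed mouse 2. Hk2, a hexokinase of dividing cells, fell from 63.8 ± 2.93 to 37.5 ± 5.94 CPM (log2 fold change -0.77, adjusted p = 0.0011), and lactate dehydrogenase A (Ldha) fell from 911 ± 103 to 666 ± 67.01 CPM (log2 fold change -0.45, adjusted p = 0.002).

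Genes of digestion and absorption rose. Of 22 genes of fat absorption and chylomicron assembly 18 rose and none fell (median 0.82), and of 11 genes of sugar digestion and transport 10 rose and none fell (median 0.94). These genes are also made mostly in mature absorptive cells. The 22 marker genes of villus enterocytes moved with them: 21 rose and none fell, the median was 1.24 (in Nt+/+ mice, 16 rose and the median was 0.91), and their summed level was 10863 to 15537 CPM in the fed mice and 25282 to 33584 CPM in the fasted mice. Several genes stand in more than 1 of these lists. In bulk crypts, more cells of a type and more RNA per cell cannot be told apart, and the part of a changed cell mixture in these results was not tested.

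Apoa4, an apolipoprotein of chylomicrons, had 939, 416, 682 and 1191 CPM in the fed and 2187, 3349, 2789, 2925 and 3281 CPM in the fasted mice. The groups did not overlap, and fasted mouse 1 was the lowest of its group (log2 fold change 1.85, SE 0.39, adjusted p = 0.0017). Its neighbour Apoa1 rose from 959 ± 222 to 3235 ± 469 CPM (log2 fold change 1.75, adjusted p = 0.00039). Apob, the backbone protein of chylomicrons, showed the largest gain in CPM of all protein-coding genes, from 2759.6 ± 616 to 5665 ± 1040.0 CPM (log2 fold change 1.04, adjusted p = 0.0025), while Mttp, which loads lipid onto it, rose from 1009 ± 201 to 2459.6 ± 254 CPM (log2 fold change 1.29, adjusted p = 2.9e-05). The fatty acid carrier Fabp2 had 709, 386, 681 and 1002 CPM and then 1997, 2446, 2712, 2351 and 2572 CPM. Its lowest fasted mouse was above its highest fed mouse (log2 fold change 1.80, SE 0.26, adjusted p = 6e-05).

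Sucrase-isomaltase (Sis) and maltase-glucoamylase (Mgam), which finish the digestion of starch, rose by 0.81 and 0.82 on the log2 scale (SE 0.19 and 0.18, adjusted p = 0.0036 and 0.0025). Slc2a5, the fructose transporter, rose from 32.6 ± 7.93 to 102 ± 17.8 CPM (log2 fold change 1.64, adjusted p = 6.7e-06), and Slc5a1, the sodium-coupled glucose transporter, rose from 903 ± 204 to 1471 ± 177 CPM (log2 fold change 0.70, adjusted p = 0.0087). Of 23 amino acid and peptide transporters 9 rose and 2 fell (median 0.39), and the number that fell was 0 without fed mouse 1 or 2 or fasted mouse 2, 3, 4 or 5, 1 without fed mouse 3, 4 without fasted mouse 1, 5 with the replicate block and 0 without both shallow fasted mice. The peptide transporter Slc15a1 rose from 218 ± 43.8 to 573 ± 99.7 CPM and the neutral amino acid transporter Slc6a19 rose from 148 ± 32.8 to 534 ± 81.5 CPM (adjusted p = 0.0012 and 0.0003). The brush border peptidase Anpep rose from 2049.9 ± 400.1 to 4344 ± 677 CPM (log2 fold change 1.08, adjusted p = 0.0014). Cps1, which makes carbamoyl phosphate for citrulline, fell from 2395, 2328, 2275 and 2342 CPM to 1576, 1480.3, 1026, 1444 and 1645 CPM. The fed mice lay close together and fasted mouse 3 was the lowest (log2 fold change -0.70, SE 0.14, adjusted p = 0.0014).

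**Figure D2:**
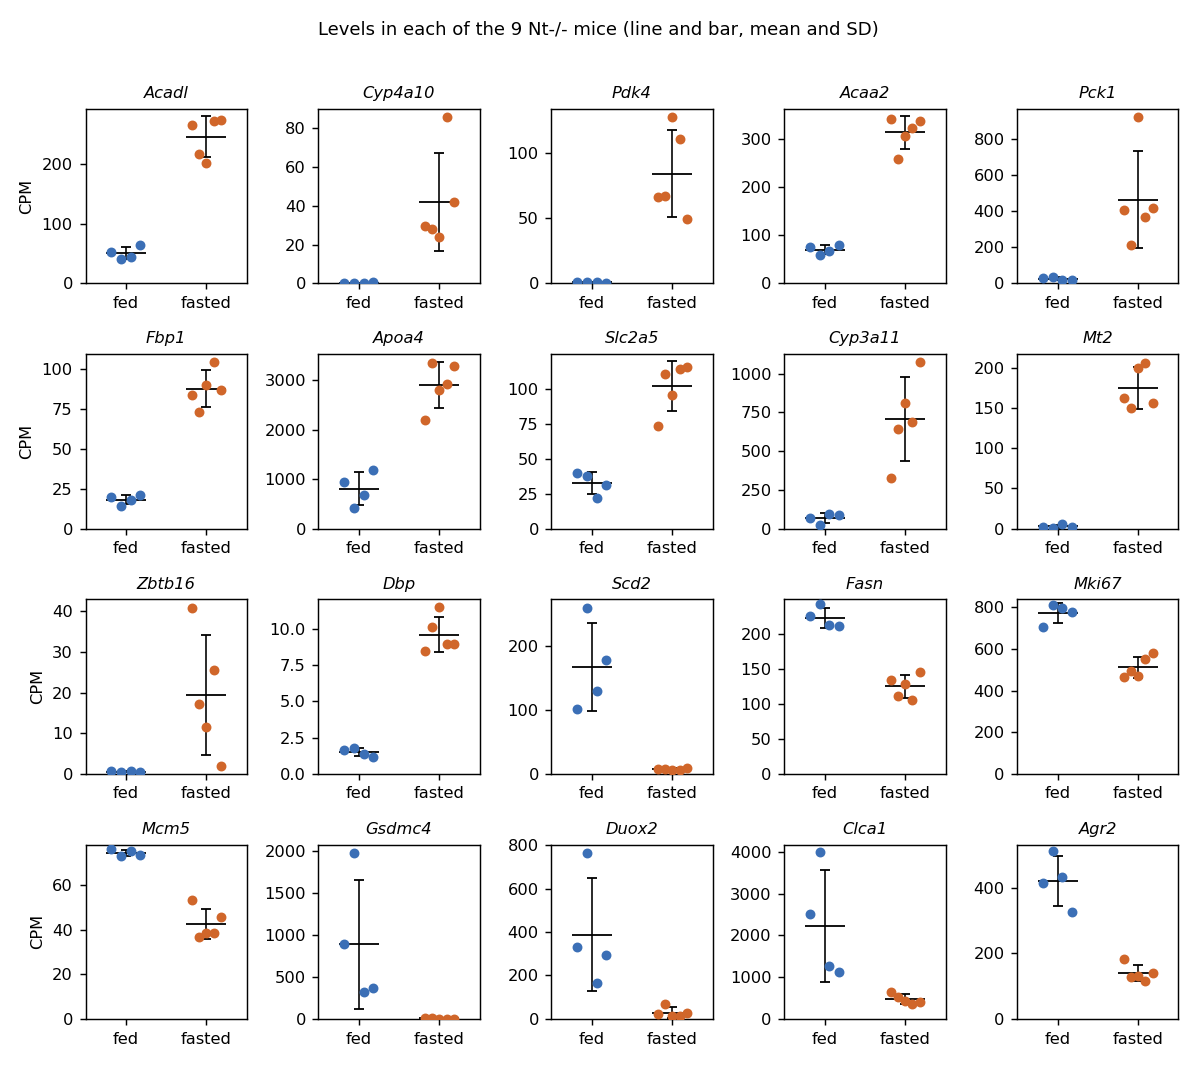
CPM of 20 genes in each of the 4 fed (blue) and 5 fasted (orange) Nt-/- mice, with the mean as a line and the SD as a bar, on axes that start at 0. Each panel has its own scale. The 20 genes were picked as examples, some of them by a rule that required groups without overlap. In all 20 panels no fasted mouse overlaps with a fed mouse. Over all tested genes this held for 21.3%, and the groups overlapped in 1185 of the 4499 called genes. The wide spread of Gsdmc4, Duox2 and Clca1 among the fed mice goes with fed mouse 2, the highest of its group for all 3.

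Of 34 P450 enzymes, esterases, conjugating enzymes and transporters of foreign compounds 26 rose and 1 fell (median 0.92). Many of them are also expressed in mature enterocytes, whose summed marker level is given above. Cyp3a11, the main drug-oxidizing P450 of the gut, had 69.7, 23.2, 92.6 and 85.97 CPM in the fed and 326, 643, 813, 686 and 1072 CPM in the fasted mice. Fed mouse 2 and fasted mouse 1 were the lowest of their groups, and the groups did not overlap (log2 fold change 3.38, SE 0.63, adjusted p = 0.00065). The carboxylesterase Ces1g rose from 1.31 ± 1.01 to 17.7 ± 5.61 CPM (log2 fold change 3.79, adjusted p = 7.4e-06), and Por, the reductase that supplies P450 enzymes with electrons, rose from 63.7 ± 9.07 to 182 ± 20.5 CPM (log2 fold change 1.51, adjusted p = 6e-09). The 1 gene of the list that fell was Cyp1a1, a target of the aryl hydrocarbon receptor, which is stimulated by food compounds. It had 0.501, 0.866, 0.867 and 1.12 CPM in the fed mice and 0, 0, 0.289, 0 and 0.0528 CPM in the fasted mice. It was near the limit of detection throughout (log2 fold change -3.26, adjusted p = 0.0024, and -5.10 without fasted mouse 3).

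Among 33 NRF2 targets and glutathione genes 15 rose and 5 fell (median 0.43), and between 2 and 3 fell when fed mouse 1, 2 or 4 or fasted mouse 2, 3 or 4 was left out. Among 14 iron genes 6 rose and 1 fell, and the number that fell was 2 without fasted mouse 1 and 2 with the replicate block. The 1 was Slc40a1, which encodes the iron exporter ferroportin, from 7.92 ± 1.81 to 2.64 ± 0.6501 CPM (log2 fold change -1.61, adjusted p = 5.9e-05), and Epas1, the oxygen-sensing factor that drives iron uptake genes in enterocytes, rose from 13.6 ± 2.66 to 33.7 ± 6.47 CPM (log2 fold change 1.31, adjusted p = 0.00019). Among 8 tested bile acid genes 5 rose and 1 fell. Nr1h4, the bile acid receptor FXR, rose from 34.8 ± 4.19 to 61.3 ± 12.7 CPM (log2 fold change 0.82, adjusted p = 0.00022). Fgf15, the hormone that FXR induces in the ileum, had 0.619, 10.7, 2.84 and 0 CPM in the fed and 0.748, 0.3404, 0.405, 0.197 and 0.159 CPM in the fasted mice. The groups overlapped and fed mouse 2 alone was high, so the call (log2 fold change -3.15, adjusted p = 0.035) was lost without fed mouse 2 (log2 fold change -1.55, adjusted p = 0.32), without fed mouse 3 or fasted mouse 2, 3, 4 or 5 (adjusted p between 0.053 and 0.078), and with the replicate block (-2.41, adjusted p = 0.0504).

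Targets of the glucocorticoid receptor rose in 11 of 25 cases and fell in 2 (median 0.50), and the number that fell was 1 without fed mouse 1 or 4 or fasted mouse 2 or 4 and 1 without both shallow fasted mice. Zbtb16, a transcription factor that glucocorticoids induce in many tissues, had 0.5605, 0.325, 0.578 and 0.533 CPM in the fed mice and 40.9, 17.1, 11.4, 25.4 and 1.796 CPM in the fasted mice. All fasted mice were above all fed mice, but fasted mouse 5 was far below the other 4 (log2 fold change 5.23, SE 0.70, adjusted p = 2.9e-05). Fkbp5, a co-chaperone of the receptor, had 22.4, 21.4, 22.97 and 17.04 CPM and then 157, 88.7, 113, 125 and 56.4 CPM, and fasted mouse 5 was again the lowest of its group (log2 fold change 2.36, SE 0.31, adjusted p = 2.4e-05). Tsc22d3, which encodes the glucocorticoid-induced leucine zipper, rose from 31.6 ± 4.15 to 48.6 ± 7.002 CPM (log2 fold change 0.61, adjusted p = 0.00045). Metallothioneins bind zinc and are induced by zinc and by glucocorticoids. Mt2 had 1.59, 1.08, 5.54 and 2.13 CPM in the fed and 163, 151, 200.3, 207 and 156 CPM in the fasted mice, a 68.6-fold rise without overlap (log2 fold change 6.10, SE 0.43, adjusted p = 9.9e-09). Its neighbour Mt1, chr8:94179082-94180327, rose from 14.95 ± 5.04 to 199 ± 39.8 CPM (log2 fold change 3.73, adjusted p = 2.4e-08), and Slc39a4, the zinc importer of the enterocyte, fell from 90.6 ± 19.2 to 37.8 ± 8.88 CPM (log2 fold change -1.26, adjusted p = 4.2e-06).

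Of 20 circadian clock genes 10 rose and none fell (median 0.58), and the same number rose when any 1 of the 9 mice was left out. With the replicate block 1 clock gene fell. The increases were largest in the PAR bZIP factors, which pass clock time on to metabolic genes. Dbp had 1.65, 1.79, 1.35 and 1.17 CPM in the fed mice and 8.44, 10.1, 11.5, 8.98 and 8.98 CPM in the fasted mice. Each fasted mouse was above each fed mouse (log2 fold change 2.68, SE 0.29, adjusted p = 2.5e-06). Tef rose from 9.28 ± 1.37 to 49.5 ± 4.798 CPM and Hlf rose from 1.75 ± 0.224 to 10.8 ± 3.76 CPM (adjusted p = 1.1e-09 and 8.5e-05). Per1, a repressor of the clock, rose from 12.7 ± 2.38 to 33.3 ± 10.2 CPM and Nr1d1, which encodes REV-ERB alpha, rose from 26.03 ± 6.87 to 60.6 ± 6.67 CPM (adjusted p = 0.0041 and 0.0028). The core activator Arntl was 57.8 ± 4.19 CPM in the fed and 53.7 ± 6.51 CPM in the fasted mice (log2 fold change -0.11, SE 0.09, adjusted p = 0.43). Fasting began at a set hour, and the hour of tissue collection is not given per mouse.

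Among 27 genes of insulin and FOXO signaling 12 rose and 1 fell (median 0.28), and the number that fell was 2 without fasted mouse 2, 2 with the replicate block and 2 without both shallow fasted mice. Irs2, the adaptor of the insulin receptor that FOXO factors induce, rose from 42.1 ± 8.56 to 76.7 ± 14.4 CPM (log2 fold change 0.87, adjusted p = 0.0032), and Trib3, an inhibitor of AKT, rose from 1.495 ± 0.381 to 6.35 ± 0.766 CPM (log2 fold change 2.07, adjusted p = 2.5e-05). Of 44 autophagy and lysosome genes 18 rose and 2 fell (median 0.14), and the number that fell was 1 without fed mouse 1, 2, 3 or 4 or fasted mouse 2 or 4 and 0 without both shallow fasted mice. Of 24 WNT targets and feedback genes 3 rose and 2 fell (median 0.12), so 20.8% were called, beside 25.2% of all tested genes. The number that rose was 6 with the replicate block. The number that fell was 1 without fed mouse 1, 2 or 3 or fasted mouse 2, 3 or 4. It was 4 with the replicate block and 1 without both shallow fasted mice. In Nt+/+ mice 8 of the 24 rose and 1 fell, with a median of 0.45. In the quasi-likelihood test of the genotype difference given below, 1 of the 24 had an unadjusted p under 0.05. None passed adjustment.

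Of 80 cytosolic ribosomal protein genes 54 rose and 1 fell, by small amounts (median 0.34, in Nt+/+ mice 0.29). The number that fell was 0 without fed mouse 1, 3 or 4 or fasted mouse 2, 3 or 4, 2 with the replicate block and 0 without both shallow fasted mice. Rps14 had 298, 258, 298 and 297 CPM in the fed and 465, 329, 406, 392 and 426 CPM in the fasted mice, and fed mouse 2 was the lowest of all (log2 fold change 0.49, SE 0.09, adjusted p = 0.00082). Rpl23 rose from 374 ± 27.5 to 515 ± 64.2 CPM and the elongation factor Eef2, whose mRNA is regulated with those of the ribosomal proteins, rose from 2078 ± 149.6 to 3076 ± 544 CPM (adjusted p = 0.0022 and 0.0023). The count of ribosomal protein genes that rose was 23 without fed mouse 2, 34 without fasted mouse 1 and 35 without fasted mouse 5, as well as 35 with sex as a covariate and 31 with no filter on low counts. Of 50 genes that assemble ribosomes 10 fell and none rose (median -0.15), so 20% were called, beside 25.2% of all tested genes. Heatr1 and Tcof1, which serve the transcription of ribosomal RNA, fell (log2 fold change -0.54 and -0.54, adjusted p = 0.0021 and 0.0038). The count of 10 was 21 with the replicate block, 4 without fed mouse 1, 5 without fed mouse 3 or 4 or fasted mouse 4, 6 without fasted mouse 2 or 3, and 3 without both shallow fasted mice.

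Of 78 mitochondrial ribosomal protein genes 28 fell and none rose (median -0.22), and 18 fell without fed mouse 2 or without fasted mouse 2, and 17 without both shallow fasted mice. Mrpl38 fell from 36.99 ± 1.94 to 23.7 ± 3.91 CPM (log2 fold change -0.64, adjusted p = 0.00059). Of 77 nuclear genes of oxidative phosphorylation 17 fell and 2 rose (median -0.13), and 11 fell without both shallow fasted mice. The number that rose was 1 without fed mouse 4. Of the 13 protein genes of the mitochondrial genome 3 fell and none rose (median -0.32), and the number that fell was 1 without fed mouse 1 or 4 or fasted mouse 1 or 2 and 5 without fasted mouse 4. The shares called in these lists, 24.7% and 23.1%, lay close to the 25.2% of all tested genes. A subunit of complex I, mt-Nd2, fell from 2272 ± 331 to 1475 ± 287 CPM (log2 fold change -0.62, adjusted p = 0.0051). Of 18 citric acid cycle genes 1 rose and 1 fell (11.1% called, median -0.03). The number that fell was 0 without fed mouse 1, 2 or 4 or fasted mouse 2, 3 or 4, 2 without fasted mouse 5, 2 with the replicate block and 0 without both shallow fasted mice, and the number that rose was 2 without fasted mouse 2, 2 with the replicate block and 2 without both shallow fasted mice.

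Of 21 heat shock genes 12 fell and 1 rose (median -0.45), and 11 to 13 fell when 1 mouse was left out. Hsph1, a large chaperone of the HSP110 family, had 77.2, 59.3, 89.8 and 73.9 CPM in the fed and 23.6, 21.2, 21.05, 21.5 and 17.6 CPM in the fasted mice. The fasted mice lay close together, far below the fed mice (log2 fold change -1.84, SE 0.29, adjusted p = 0.00016). Hsp90aa1, the inducible HSP90, fell from 384 ± 35.5 to 209 ± 10.4 CPM (log2 fold change -0.88, adjusted p = 6.8e-05). Hspa1b, an inducible HSP70 that shares most of its sequence with Hspa1a, fell from 3.47 ± 1.47 to 1.02 ± 0.411 CPM (log2 fold change -1.79, adjusted p = 0.014), and its adjusted p was 0.054 without fed mouse 1. Of 31 genes of the unfolded protein response 13 fell and 2 rose (median -0.30). The number that fell was 8 without fed mouse 1 or fasted mouse 4, 7 without fasted mouse 3 and 6 without both shallow fasted mice. Sdf2l1, a cofactor of chaperones in the endoplasmic reticulum, fell from 27.7 ± 3.99 to 14.5 ± 3.32 CPM (log2 fold change -0.93, adjusted p = 0.0017). Hspa5, the main chaperone there, was 561 ± 54.1 CPM in the fed and 455 ± 47.7 CPM in the fasted mice (adjusted p = 0.13, and 0.036 with the replicate block).

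A phospholipase and the gasdermin C genes fell by the most among well expressed genes named here. Gasdermins form pores in membranes, and the gasdermin C genes lie side by side on chromosome 15. Gsdmc4 (chr15:63891264-63912297) had 895, 1977, 323 and 372 CPM in the fed mice and 15.1, 9.08, 0.578, 3.45 and 2.54 CPM in the fasted mice. Fed mouse 2 was the highest, and even the lowest fed mouse was far above every fasted mouse (log2 fold change -7.18, SE 1.01, adjusted p = 4.6e-05). Its neighbours Gsdmc2 and Gsdmc3 fell too (log2 fold change -6.61 and -7.59, SE 0.96 and 1.01), with the limit that reads shared between these copies were divided by RSEM. Pla2g4c, a calcium-independent phospholipase A2, had 200.1, 1835, 57.6 and 52.7 CPM in the fed and 1.17, 1.13, 0.116, 0.888 and 0.476 CPM in the fasted mice. Fed mouse 2 was again by far the highest (log2 fold change -9.55, SE 1.74, adjusted p = 0.0005).

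Fed mouse 2 was also the highest for Fn1, which encodes fibronectin. Fn1 had 4.37, 57.96, 2.12 and 1.28 CPM in the fed and 0.214, 0.113, 0.5204, 0.296 and 0.423 CPM in the fasted mice (log2 fold change -5.58, adjusted p = 0.007). Without fed mouse 2 Fn1 was not called (log2 fold change -2.96, adjusted p = 0.096). The summed markers of mesenchyme were 11 to 15 CPM in the fed mice and 8 to 14 CPM in the fasted mice.

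The oxidase Duox2, which releases hydrogen peroxide at the epithelial surface in response to microbes, had 332, 764, 165 and 293 CPM in the fed and 22.8, 70.2, 13.3, 14.99 and 25.5 CPM in the fasted mice. Fed mouse 2 and fasted mouse 2 were the highest of their groups, and the groups did not overlap (log2 fold change -3.75, SE 0.53, adjusted p = 4.7e-05). Duoxa2, the gene beside it that encodes its maturation factor, fell from 31.4 ± 21.9 to 2.96 ± 2.22 CPM (log2 fold change -3.52, adjusted p = 0.00028). Sprr2a2, which encodes a small proline-rich protein and has near-identical neighbours, fell from 862 ± 556 to 81.3 ± 51.2 CPM (log2 fold change -3.41, adjusted p = 0.00014). The inducible nitric oxide synthase Nos2 had 6.14, 0.758, 11.4 and 19.1 CPM in the fed and 12.9, 172, 17.6, 16.1 and 15.7 CPM in the fasted mice. Fasted mouse 2 alone was high and the groups overlapped. The call (log2 fold change 2.30, adjusted p = 0.035) was lost without fasted mouse 2 (log2 fold change 0.75, adjusted p = 0.34), without fed mouse 1, 2 or 3 (adjusted p = 0.091, 0.086 and 0.066) and with the replicate block (adjusted p = 0.11).

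Goblet cell genes mostly had lower values: 5 of 13 fell and 1 rose (median -0.74). The count was 3 without fed mouse 1, 3 without both shallow fasted mice and 8 without fasted mouse 1. Their summed level was 9739 to 15671 CPM in the fed mice and 7850 to 10633 CPM in the fasted mice. Clca1, a secreted protein of mucus, had 2508, 3988, 1255 and 1113 CPM in the fed and 649, 533, 418, 361 and 416 CPM in the fasted mice. Fed mice 1 and 2 were the highest (log2 fold change -2.22, SE 0.42, adjusted p = 0.00067). Muc2, the main mucin, fell from 3583 ± 1308 to 2009.5 ± 156 CPM (log2 fold change -0.83, adjusted p = 0.0031, and -0.55 without fed mouse 2). Agr2, which folds mucins, fell from 415, 512, 433 and 327 CPM to 183, 128, 131, 117 and 141 CPM, without overlap (log2 fold change -1.59, SE 0.17, adjusted p = 2.9e-06). The lectin Zg16 rose from 408 ± 117 to 971 ± 206 CPM (log2 fold change 1.25, adjusted p = 0.0011).

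Of 16 Paneth cell genes 3 fell and none rose (median -0.15), and 5 fell without fasted mouse 1. Mptx2, a pentraxin of Paneth cells, fell from 817 ± 301 to 243 ± 118 CPM (log2 fold change -1.75, adjusted p = 0.00047). Of all 16, 18.8% were called, beside 25.2% of all tested genes. Of 15 stem cell genes 3 fell and none rose (median -0.23), and 5 fell without fasted mouse 1 and with the replicate block. That is 20% of the list called, below the share over all tested genes. Olfm4, a secreted glycoprotein of stem cells and early progenitors, had 1644, 1249, 1912 and 2071 CPM in the fed and 1045, 836, 771, 839 and 1065 CPM in the fasted mice, without overlap (log2 fold change -0.92, SE 0.22, adjusted p = 0.0041). Prom1, a membrane glycoprotein of stem and progenitor cells, fell from 171 ± 10.7 to 116 ± 9.54 CPM (log2 fold change -0.57, adjusted p = 0.0033). Of 9 tested genes of reserve and regenerative cells 1 rose and 1 fell (median -0.12), and the 22.2% called lay below the share over all tested genes. With the replicate block 2 rose and 2 fell. The number that fell was 0 without fed mouse 1 or 3, fasted mouse 4 or both shallow fasted mice. The 1 that rose was Clu, which encodes clusterin and marks a rare regenerative crypt cell. Clu went from 1.36 ± 0.686 to 11.96 ± 4.03 CPM (log2 fold change 3.14, adjusted p = 1.3e-05). Of 21 enteroendocrine genes 2 rose and 3 fell, and the 23.8% called were also below that share. The number that fell was 1 without fasted mouse 2 and 0 without both shallow fasted mice, and the number that rose was 1 without fed mouse 2 or 3 or fasted mouse 1. The hormone gene Sst rose from 8.06 ± 0.981 to 12.9 ± 1.503 CPM (log2 fold change 0.68, adjusted p = 0.00088).

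Of 19 T cell genes 2 rose and none fell, and their summed level was 103 to 195 CPM in the fed mice and 166 to 314 CPM in the fasted mice. With 10.5% called, beside 25.2% of all tested genes, the list is not set apart by its count. The number that rose was 0 without fed mouse 2, 3 or 4 or fasted mouse 3 or 5 and 0 with the replicate block, and 9 in a fit to the 9 Nt-/- mice alone. Of 9 MHC class II genes 3 rose and none fell, and the count was 6 with the replicate block, 7 without fed mouse 1 and 6 without fasted mouse 4. That is 33.3% called, beside 25.2% of all tested genes, and the median was 0.57 (in Nt+/+ mice, 0.02). In the quasi-likelihood test of the genotype difference given below, 3 of the 9 had an unadjusted p under 0.05, beside 2.71% of all genes. None passed adjustment. H2-Aa, a class II chain, had 133, 35.8, 70.3 and 79.2 CPM in the fed and 177, 245, 144, 103 and 179 CPM in the fasted mice, and the groups overlapped (log2 fold change 1.09, SE 0.28, adjusted p = 0.0081). Of 39 interferon-stimulated genes 3 fell and none rose, so 7.69% were called, and the median was -0.03. The number that fell was 0 without fed mouse 1, 5 with the replicate block and 1 without both shallow fasted mice, and the number that rose was 1 without fed mouse 1 or fasted mouse 3 or 5 and 1 with the replicate block. The sensor of viral nucleic acid Zbp1 had 21.5, 12.01, 6.74 and 11.7 CPM and then 7.85, 9.87, 3.99, 4.34 and 3.38 CPM, with overlap (log2 fold change -1.17, adjusted p = 0.0092, and 0.065 without fed mouse 1). Rtp4, a chaperone induced by interferon, was not called (log2 fold change 0.92, adjusted p = 0.096), and was called without fasted mouse 3 or fasted mouse 5 (adjusted p = 0.049 and 0.026).

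**Figure D3:**
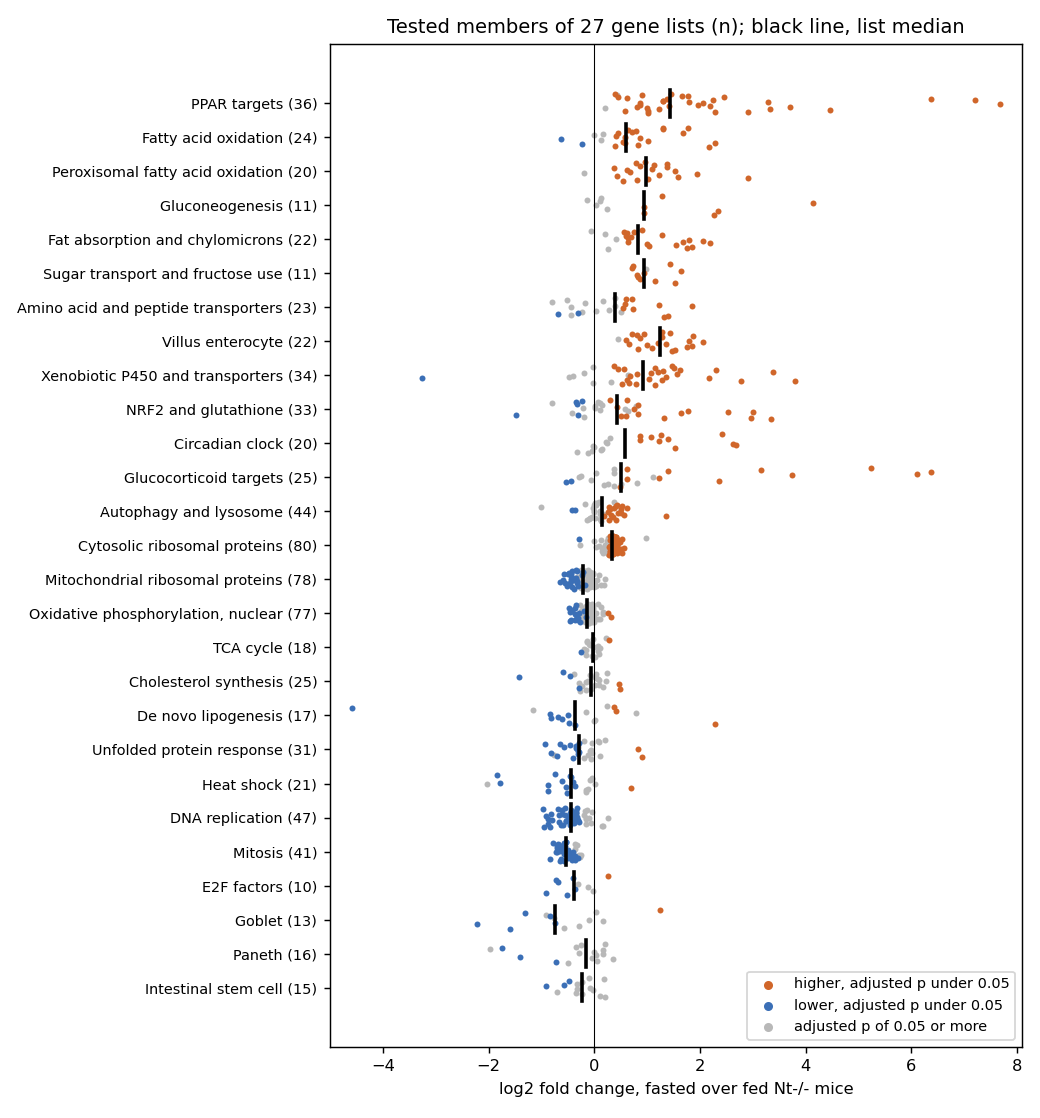
Log2 fold change of fasted over fed Nt-/- mice (horizontal axis) for each tested member of 27 gene lists (rows, with the number of members), 1 point per gene; orange, higher and blue, lower at an adjusted p under 0.05, grey, not called, and a black line at the median of the list. The medians run from 1.43 for PPAR targets to -0.74 for goblet cell genes.

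**Figure D4:**
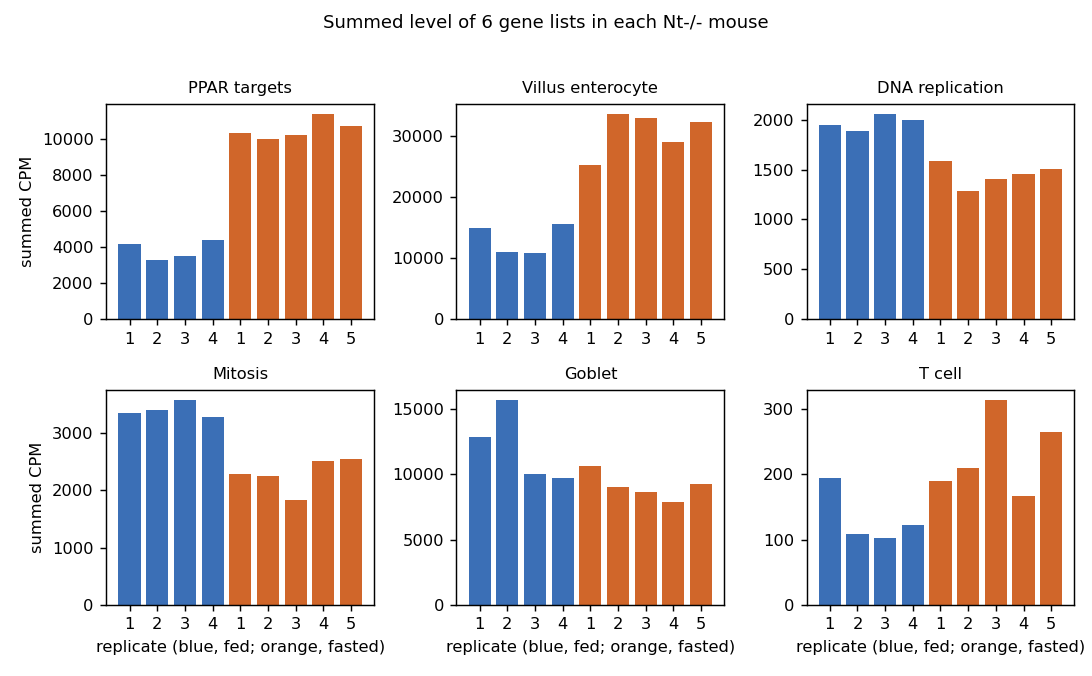
Summed CPM of 6 gene lists (panels) in each of the 4 fed (blue) and 5 fasted (orange) Nt-/- mice, 1 bar per mouse, on axes that start at 0. The sums of the PPAR targets and villus enterocyte markers are higher in all 5 fasted mice, those of DNA replication and mitosis are lower in all 5, and those of goblet and T cell markers overlap between the groups.

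Some of the most reliable changes lay outside these lists. Cirbp, an RNA-binding protein induced by cold, rose from 17.3 ± 1.22 to 58.1 ± 6.899 CPM (log2 fold change 1.75, adjusted p = 4.2e-09). Hdc, the enzyme that makes histamine, rose from 0.558 ± 0.177 to 6.73 ± 2.63 CPM (log2 fold change 3.62, adjusted p = 1.6e-06). Rbp7, a cellular retinol-binding protein, had 13.9, 15.04, 17.4 and 15.2 CPM in the fed and 2.46, 3.404, 1.68, 3.45 and 3.28 CPM in the fasted mice, without overlap (log2 fold change -2.45, SE 0.16, adjusted p = 4.2e-09). Kcne3, a potassium channel subunit that supports chloride secretion, fell from 94.3 ± 9.72 to 26.5 ± 4.54 CPM (log2 fold change -1.82, adjusted p = 7.7e-07).

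A few genes varied widely among the fasted mice. The mitochondrial gene mt-Co3 had 110.4, 78.1, 0.116, 272 and 183 CPM in the fasted mice, with mouse 3 near 0, and 142, 261, 199 and 695 CPM in the fed mice. Lars2, a mitochondrial tRNA synthetase gene to which reads of ribosomal RNA are known to align, had 1046, 2153, 393, 519.6 and 447 CPM, and the alpha-defensin Defa33, one of many near-identical genes, had 704, 203, 572, 11.4 and 428 CPM. Pfkfb3, a regulator of glycolysis, had 16.3, 60.3, 7.46, 19.8 and 9.09 CPM in the fasted mice and 27.1, 23.7, 27.4 and 24.4 CPM in the fed mice. None of these 4 was called, but Pfkfb3 was called without fasted mouse 2 (log2 fold change -0.98, adjusted p = 0.029).

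Whether any of these changes is particular to Nt-/- mice was tested as the difference between the effects of fasting in Nt-/- and Nt+/+ mice. No gene of 17875 passed with edgeR's quasi-likelihood test (smallest adjusted p, 0.9998), and 485 genes (2.71%) had an unadjusted p under 0.05. DESeq2 called none, with 458 at an unadjusted p under 0.05, and edgeR's likelihood ratio test called 1, with 465. The effects in the 2 genotypes rest on different mice. For Pdk4 the log2 fold change was 6.36 in Nt-/- and 4.97 in Nt+/+ mice, for Scd2 -4.59 and -4.19, and for Gsdmc4 -7.18 and -6.20. For the 3862 genes called in Nt+/+ mice, each change was signed by its direction there and averaged per mouse on the log2(CPM + 1) scale. Against the mean of the fed Nt-/- mice, the 5 fasted Nt-/- mice had 0.538 to 0.628. The 4 fed Nt-/- mice, centred by the subtraction of their own mean, lay between -0.0396 and 0.0246. Against the mean of the fed Nt+/+ mice, the fasted Nt+/+ mice, in which these genes were called, had 0.448 to 0.656.

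Among the genes named here, the unadjusted p of this difference was low for Kcne3 (-1.82 in Nt-/- and -1.15 in Nt+/+ mice, unadjusted p = 0.011) and Rbp7 (-2.45 and -1.87, unadjusted p = 0.012), and none passed adjustment. Of the 39 interferon-stimulated genes 9 had an unadjusted p under 0.05 for the difference, against 2.71% of all genes. Their median log2 fold change was -0.03 in Nt-/- mice, where 3 fell, and -0.55 in Nt+/+ mice, where 12 fell. Isg15, a ubiquitin-like protein of this response, had 2.74, 2.22, 1.83 and 1.65 CPM in fed and 3.04, 3.29, 0.578, 2.27 and 0.687 CPM in fasted Nt-/- mice, and fasted mice 3 and 5 were below the other 3 fasted mice. Genes of this response rise and fall together, so the 9 are not separate observations, and no single gene passed adjustment.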

How the data were processed

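Crypt RNA of 19 mice was depleted of ribosomal RNA and sequenced from 1 end. Per the labels and the study's methods, the authors trimmed reads with Trimmomatic 0.39 and estimated expression with RSEM on GRCm38. The deposited expected counts of 55487 genes are model estimates and were rounded. Over all these genes, including those at 0, 11.4% to 14.9% of a mouse's values were not whole. The strand setting and the RSEM version are not given in the sources used here. Gene names and coordinates were taken from GENCODE M21 (55227 IDs matched).

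edgeR 4.0.16 (R 4.3.3, limma 3.58.1) was run with TMM factors, filterByExpr and the quasi-likelihood test on the 4 groups of 19 mice in 1 fit (15 residual degrees of freedom, biological coefficient of variation 18.9%). The fit was also run on simulated counts with known changes and 1 spread for all genes, which does not cover pairing or outlying mice. Mice were grouped by title. Separate mice are the replicates. Where a gene list is described, a member was counted by its adjusted p over all 17875 genes. The share to set beside each such count is the 25.2% of all tested genes that were called. Several lists share members.

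Genes were named by rule: the 12 largest changes in each direction among non-overlapping protein-coding genes with an average of at least 1 log2 CPM, the 10 in each direction with the smallest p, the 8 in each direction with the largest CPM difference, the 10 with the largest SD of log2(CPM + 1) among fasted mice at a mean of at least 4, and, per list, key genes and the 4 smallest p. The rule gave 377 genes, of which 115 are described, and some are not reported here. Which of the 377 are described, the gene lists and the members of the comparison were chosen with earlier results of these data known.

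Mice that shared the first number in their file names were more alike on average, though not in every pair. The deviations of a fed and a fasted Nt-/- mouse of the same number from their group means correlated at 0.379, 0.147, 0.123 and 0.269 (mean 0.23). The 16 pairs of different numbers correlated at -0.218 to 0.125 (mean -0.058). The main fit did not use this number. The labels do not say what the number marks. A fit with it as a replicate block, DESeq2 1.42.0, edgeR's likelihood ratio test, other filters and normalizations, sex as a covariate without the mouse that has no sex label, other groupings of the mouse whose labels disagree, and leaving out each mouse were tried as alternatives.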

Additional observations from a re-analysis of the deposited data

Results flagged for a closer look

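Single mice that stood apart from the rest of their group were sought by Dixon's test in the named genes and in the total counts. Of 232 groups of 4 or 5 mice tested, 14 (6.03%) passed the 95% critical value. Chance gives about 1 in 20 for genes not chosen by their values. Some named genes, mt-Co3 and Nos2 among them, were chosen by their large SD among the fasted mice. That rate is therefore no fair reference for this share. Fasted mouse 3 was the one in 5 of the 14. It was the lowest fasted mouse for Acacb at 32.4 CPM, Ccnb1 at 28.2 CPM, Cps1 at 1026 CPM and mt-Co3 at 0.116 CPM. It was the highest for Cyp1a1 at 0.289 CPM. Fasted mouse 3 was the only fasted Nt-/- mouse labelled male, and no fed Nt-/- mouse shared its file-name number. The part of either in these values was not tested. Fasted mouse 2, the shallowest library, was the highest for Duoxa2 at 6.92 CPM and Nos2 at 172 CPM and the lowest for Sst at 10.3 CPM. Fed mouse 2 was the lowest of the fed mice for Rps14 at 258 CPM and Zbtb16 at 0.325 CPM.

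The other values came from different mice. Hspa5 was highest in fasted mouse 1 at 537 CPM, Rrm2 in fed mouse 3 at 48.8 CPM and Nts in fed mouse 4 at 0.746 CPM. Fed mouse 1 had the highest total of the fed mice, 35068711 counts.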

How the results depend on the processing

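The count of 4499 genes lay between 3442 (without fed mouse 3) and 4480 (without fasted mouse 1) when 1 Nt-/- mouse was left out, and 2806 genes (62.4%) were called in every one of these 9 fits. Over the other alternatives it ran from 3670 with no filter on low counts to 5672 with the file-name replicate block, and was 3844 without both shallow fasted mice, an alternative chosen after seeing the data. The block shared 4416 genes with the 4499 and lost 83. Other than where it is given in the text, the block changed no call of a named gene and, among the gene lists described, moved no count by over 1.5 times. DESeq2 called 4727 genes and shared 4336. With the title number as a block 5657 genes were called, but fed and fasted mice of the same title number correlated less (mean 0.13, lowest -0.065). For the difference between the genotypes the likelihood ratio test called 1 gene where the other alternatives called 0, the predicted gene Gm15429 (log2 difference -10.89, adjusted p = 0.0038), and the cause was not tested. Of 103 named genes that were called, 96 kept the call in all 9 fits with a mouse left out and 99 in all 13 other alternatives, and no named gene reversed. Fewer genes were called at low levels (11.9% under 2 log2 CPM, 36.8% at 5 or more), and the part of depth in this was not tested.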
